A study of Mus musculus with 6 samples.

Results

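The transcripts of 9 genes for T-box transcription factors, Tbx1, Tbx2, Tbx3, Tbx4, Tbx5, Tbx6, Tbx15, Tbx18 and Tbx20, were followed in the ectoderm of the mouse forelimb bud, with and without the zinc finger transcription factor Sp8. They were picked by gene symbol, and make up 9 of the 49452 genes in the deposited table. The data were 6 RNA-seq libraries at E10.5 of embryonic development, each from the trypsin-freed ectoderm of both forelimbs of a separate embryo: 3 Sp8 null embryos from intercrosses of heterozygotes carrying an allele labelled Sp8-Cre-ERT2, and 3 wild-type embryos from crosses of C57BL/6 mice. Both groups carry the same strain label, C57BL6J, but came from different crosses. Values are FPKM, a fragment count scaled by transcript length and library size, which allows levels to be compared between genes.

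T-box factors share a DNA-binding domain, the T-box, and bind related sites in DNA, some as activators and some as repressors. Several come in close pairs that arose by duplication: Tbx2 with Tbx3, Tbx4 with Tbx5, and Tbx15 with Tbx18. In the limb bud, Tbx5 is known as the forelimb gene of the mesenchyme, where it starts expression of Fgf10, and Tbx4 as its hindlimb counterpart. Tbx2 and Tbx3 are repressors known from the bud margins and, for Tbx3, also from the apical ectodermal ridge, where both have been linked to BMP signalling. Tbx15 and Tbx18 are known from mesenchyme and act with Groucho-type corepressors. Tbx1, Tbx6 and Tbx20 are best known from pharynx, presomitic mesoderm and heart.

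RefSeq promoter entries (build GRCm38.p6) were matched for 5 of the 9 members, Tbx1, Tbx4, Tbx6, Tbx18 and Tbx20, and not for Tbx2, Tbx3, Tbx5 and Tbx15. The 250 bases before the RefSeq start are shown for Tbx18 and Tbx4, members that were both highest in Sp8 null embryo 2 and lowest in wild-type embryo 2. The Tbx18 window is chr9:87731261-87731510 on the minus strand and ends at the gene's annotated start. The Tbx4 window is chr11:85896515-85896764 on the plus strand, and its RefSeq start lies 10.3 kb inside the gene as GENCODE M21 annotates it. Capitals mark matches on either strand to GGGCGG (a GC box, the type of site bound by Sp factors), TCACAC (part of the T-box site) or TAATT (a homeodomain core).
Tbx18: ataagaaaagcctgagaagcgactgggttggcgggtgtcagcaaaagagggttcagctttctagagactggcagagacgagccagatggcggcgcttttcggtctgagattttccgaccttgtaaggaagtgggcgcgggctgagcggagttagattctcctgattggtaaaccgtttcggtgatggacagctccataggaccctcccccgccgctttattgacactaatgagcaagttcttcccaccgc
Tbx4: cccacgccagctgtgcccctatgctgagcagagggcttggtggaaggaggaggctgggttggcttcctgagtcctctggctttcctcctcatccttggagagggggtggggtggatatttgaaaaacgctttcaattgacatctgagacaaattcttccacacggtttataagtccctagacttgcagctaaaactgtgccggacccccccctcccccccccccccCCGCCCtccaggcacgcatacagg
The Tbx4 window held 1 GC box and neither of the other motifs, and the Tbx18 window held none of these letters. Of 32851 RefSeq windows of the same length, 32.7% held a GC box, 12.3% TCACAC and 25.0% TAATT, so a match is common and is given only as a description.

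Relative depth, read from the steps between low values, was 0.844 to 1.03 of that of wild-type embryo 1, and 11835 to 12245 genes reached 1 FPKM in a library. Sp8 itself followed the labels, at 0.787 ± 0.338 FPKM in Sp8 null embryos and 10.9 ± 2.56 FPKM in wild type (SD, n = 3 each). Of 12133 genes tested with limma, 829 were called (Benjamini-Hochberg adjusted p below 0.05), and 24.6% of the calls were higher in Sp8 null (37.2% under median-of-ratios and 41.7% under upper-quartile scaling). The tissue label was matched by its markers: all 15 surface ectoderm genes of the marker list were tested, among them Cldn6 (338 ± 70.5 FPKM in Sp8 null embryos and 323 ± 29.4 in wild type, SD, n = 3 each), a tight junction protein. Of those 15 genes 2 were called, Epcam lower and Tfap2a higher, where 6.83% of all tested genes were called. Neither was called when any wild-type library was left out, nor Epcam without Sp8 null embryo 1 or 2. In those fits the log2 fold change was -0.56 to -0.43 for Epcam and 0.49 to 0.56 for Tfap2a. With all libraries it was -0.53 and 0.52. None of the genes listed as markers of other cell types was called, but untested genes could not be called. Few were tested outside the limb mesenchyme (10 of 15) and erythroid (5 of 6) lists. Tested were 0 of 7 heart, 2 of 6 presomitic and 1 of 7 muscle progenitor genes. For neural crest and glia it was 1 of 5, for endothelium 1 of 8 and for macrophages 1 of 7. The heart list summed to 0.551 to 2.13 FPKM: Nkx2-5, Gata4 and Myh6 were listed at 0 in every library and Myl7 was the most abundant, but Tnni1 (0.127 ± 0.0353 FPKM in Sp8 null embryos and 0.931 ± 0.343 in wild type, SD, n = 3 each) and Tnnt2, genes of troponin subunits, were higher in every wild-type library than in any Sp8 null library. The presomitic list summed to 5.35 to 8.39 FPKM, carried by the Notch pathway genes Lfng and Dll1, with Msgn1 and Ripply2 listed at 0. The muscle progenitor list summed to 11.4 to 17.7 FPKM, nearly all of it Met, a receptor also known from epithelia. The sum was 9.18 to 11.6 FPKM for neural crest and glia, led by Erbb3. It was 2.21 to 4.52 FPKM for endothelium, led by Egfl7, and 1.48 to 3.18 FPKM for macrophages, led by Cd68. Pecam1 and Cdh5 of the endothelium list and Cx3cr1 of the macrophage list were higher in every Sp8 null library than in any wild-type library. Flt1 of the endothelium list was lower in every Sp8 null library. These genes were untested, at no more than 0.3588 FPKM in any library.

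Tbx3 was the only one of the 3 tested members to be called. It was the most abundant of the 9 in wild-type ectoderm and fell to 0.529 of the wild-type mean in Sp8 null. The 3 other members above 1 FPKM in some library, Tbx5, Tbx15 and Tbx18, varied widely among embryos of the same genotype, and their groups overlapped. The remaining 5 stayed under 1 FPKM in every library. Of the 9 members 3 passed the filter of at least 1 FPKM in at least 3 libraries (Tbx3, Tbx5 and Tbx15). Of these 3, Tbx3 was called lower and none was called higher, where 6.83% of all tested genes were called, with 1.68% of tested genes called higher, and 24.0% had an unadjusted p under 0.05.

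**Figure D1:**
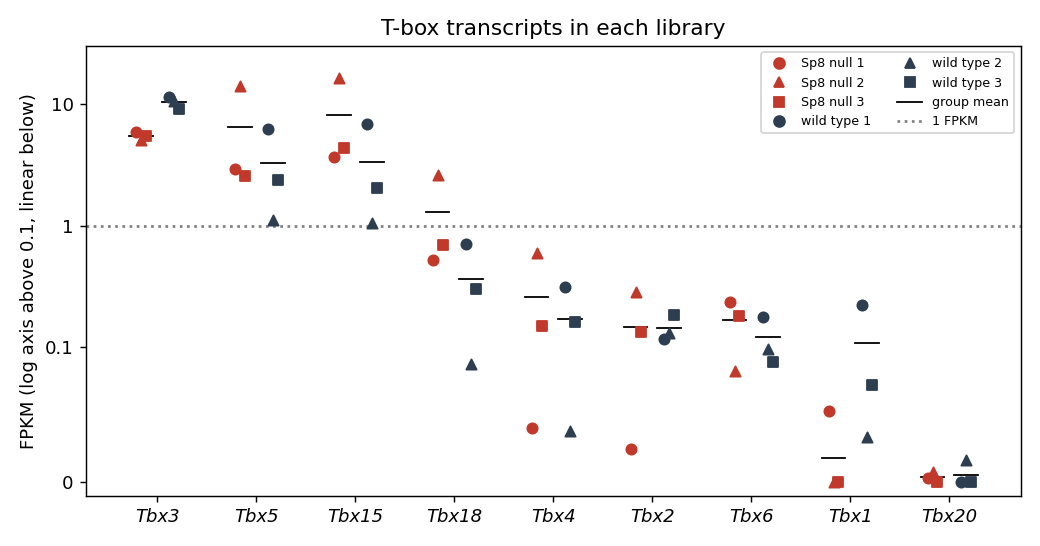
FPKM of the 9 T-box genes (x axis) in each of the 6 libraries, on an axis that is logarithmic above 0.1 FPKM and linear below; colours are genotypes, marker shapes embryo numbers, black bars group means and the dotted line 1 FPKM. The Tbx3 values of the genotypes do not overlap, while Tbx5, Tbx15 and Tbx18 are highest in Sp8 null embryo 2 and lowest in wild-type embryo 2.

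Tbx3 (ENSMUSG00000018604; GRCm38, chromosome 5, 119670669 to 119684724, plus strand) was at 5.909, 5.027 and 5.482 FPKM in Sp8 null embryos 1, 2 and 3, and at 11.34, 10.63 and 9.055 FPKM in wild-type embryos 1, 2 and 3. The groups did not overlap, and within each genotype the highest library was at most 1.25 times the lowest. The mean fell from 10.3 ± 1.17 to 5.47 ± 0.441 FPKM (SD, n = 3 each), or to 0.529 of wild type. The log2 fold change on the log2(FPKM + 1) scale was -0.81 (SE 0.11, 95% interval -1.05 to -0.56; limma, Benjamini-Hochberg adjusted p = 0.00592). Among all tested genes 5.15% were called lower and 21.1% had non-overlapping groups with the lower values in Sp8 null. In the authors' deposited table, the normalized mean was 1843.73 for wild type against 964.59 for Sp8 null, a fold change of -1.87. In bulk ectoderm, fewer cells with the transcript and less transcript per cell cannot be told apart.

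The exons of Tbx3 overlap those of Tbx3os1, a gene on the other strand, by 115 bases, and since the use of strand is not given in the sources used here, reads of this stretch could belong to either. Tbx3os1 was below the filter, at 0.2209, 0.2109 and 0.2481 FPKM in Sp8 null embryos and 0.599, 0.2598 and 0.3862 FPKM in wild type. Tbx3os2, a further transcript of the other strand next to Tbx3 without shared exon bases, was at 0.1453, 0.2224 and 0.1401 FPKM in Sp8 null embryos and 0.3266, 0.2742 and 0.2763 in wild type. For both, each Sp8 null library was below each wild-type library. These genes were not tested.

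The flanking genes on chromosome 5 did not pass the test. Tbx5 starts 148 kb beyond the end of Tbx3. Rbm19, an RNA-binding protein gene, lies 231 kb beyond Tbx5 and had a log2 fold change of -0.08 (SE 0.14, limma adjusted p = 0.77). Med13l, a subunit gene of the Mediator kinase module 905 kb before Tbx3, was at 7.19, 8.339 and 7.83 FPKM in Sp8 null embryos and 8.216, 7.695 and 7.368 FPKM in wild type (limma adjusted p = 0.986).

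The tested genes whose profile over the 6 libraries lay nearest to that of Tbx3, by the root mean square distance between log2(FPKM + 1) values centred on their means, were N4bp3 (0.0497), Egfr (0.0537) and Crhr1 (0.0596). N4bp3 and Crhr1 reached 1 FPKM only in the wild-type libraries, so only that group put them among the tested genes. Egfr, the receptor for epidermal growth factor, was at 6.841, 5.442 and 6.635 FPKM in Sp8 null embryos and 12.44, 12.76 and 10.41 FPKM in wild type. Its values show the same separation as those of Tbx3. Among the listed genes, Bmp4, Bambi and Sall1 ranked the 6 libraries in exactly the order of Tbx3, as did 109 of the 12132 other tested genes, or 0.898%.

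Genes of BMP and ridge signalling, a list that also holds genes induced by BMP such as Msx1, were mostly lower. Of 16 listed genes 15 were tested, 10 were called lower and 1 higher. Among all tested genes 5.15% were called lower and 1.68% higher. The median log2 fold change of the list was -1.29, against -0.06 over all tested genes. Many of these genes were known from earlier results to be lower, so the count is no independent evidence of direction. Msx1, a homeodomain factor induced by BMP, fell from 7.63 ± 1.44 to 2.67 ± 0.468 FPKM (SD, n = 3 each). Id1, an inhibitor of basic helix-loop-helix factors, fell from 10.9 ± 2.03 to 3.29 ± 0.0914 FPKM (SD, n = 3 each). Id2 and Id3 had log2 fold changes of -0.72 and -1.29 (limma adjusted p = 0.0384 and 0.00617). Id2 was not called without Sp8 null embryo 1 or 2 or wild-type embryo 1 or 2 (log2 fold change -0.61 without Sp8 null embryo 2). The other genes called lower were Bmp4, Bambi, Msx2, Fgf4, Fgf8 and Fgf9, between -4.38 for Fgf8 and -1.72 for Bmp4 and Msx2. Bambi, Fgf4 and Fgf9 reached 1 FPKM only in wild type, so they passed the filter only through the group where they were high. They make up 3 of the 10 lower calls and fell under the filter when any wild-type library was left out. Smad1, a mediator of BMP signals, rose by 0.54 (limma adjusted p = 0.0116). It was not called without wild-type embryo 2, where its log2 fold change was 0.57. The receptor gene Bmpr1a and the ligand genes Bmp2 and Bmp7 did not pass the test (limma adjusted p = 0.207, 0.939 and 0.459).

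Tbx2, the close relative of Tbx3, was low in every library. It was at 0.02433, 0.2838 and 0.1338 FPKM in Sp8 null embryos and 0.116, 0.1298 and 0.1851 FPKM in wild type. The groups overlapped fully, since Sp8 null embryo 1 held the lowest and Sp8 null embryo 2 the highest value. Tbx2 was therefore under the filter, and at 0.144 FPKM it was far below the 10.3 FPKM of Tbx3 in wild type. In the authors' deposited table Tbx2 had a fold change of 1.0 (p = 0.994).

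Tbx5 (ENSMUSG00000018263; chromosome 5, 119832668 to 119885219, plus strand) was at 2.917, 13.95 and 2.574 FPKM in Sp8 null embryos 1, 2 and 3, and at 6.277, 1.105 and 2.372 FPKM in wild-type embryos 1, 2 and 3. Sp8 null embryo 2 was highest and wild-type embryo 2 lowest, and the other 4 libraries of both genotypes lay between them. The mean was 6.48 ± 6.47 FPKM in Sp8 null embryos and 3.25 ± 2.70 FPKM in wild type (SD, n = 3 each). The log2 fold change was 0.67 (SE 0.62, 95% interval -0.78 to 2.13; limma adjusted p = 0.563). It was 0.01 without Sp8 null embryo 2 (95% interval -1.06 to 1.08) and 0.26 without wild-type embryo 2. Without Sp8 null embryo 3 it was 1.04, and without wild-type embryo 1 it was 1.16.

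Tbx15 (ENSMUSG00000027868; chromosome 3, 99240381 to 99354259, plus strand) was at 3.64, 16.45 and 4.371 FPKM in Sp8 null embryos and at 6.813, 1.042 and 2.032 FPKM in wild type. The same embryos held the extremes, and the groups overlapped. The log2 fold change was 1.06 (SE 0.61, 95% interval -0.38 to 2.49; limma adjusted p = 0.348), 0.45 without Sp8 null embryo 2 and 1.61 without wild-type embryo 1, and none of these passed the test. The neighbour Wars2, which ends 1.2 kb before Tbx15 on the same strand and encodes a mitochondrial tRNA synthetase, was at 2.44, 3.025 and 2.929 FPKM in Sp8 null embryos and 2.953, 2.741 and 2.745 FPKM in wild type, without the spread of Tbx15. Wdr3, 784 kb on the other side, had a log2 fold change of -0.34 (limma adjusted p = 0.146).

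Tbx18 (ENSMUSG00000032419; chromosome 9, 87702800 to 87731260, minus strand) was at 0.5212, 2.616 and 0.6908 FPKM in Sp8 null embryos and at 0.6993, 0.08763 and 0.2985 FPKM in wild type. It reached 1 FPKM only in Sp8 null embryo 2 and so was under the filter. Wild-type embryo 1, at 0.6993 FPKM, lay above 2 of the 3 Sp8 null libraries, so the groups overlapped. With no filter the log2 fold change was 0.65 (limma adjusted p = 0.51). In the authors' deposited table its normalized means were 66.22 for wild type against 242.23 for Sp8 null, while the listed fold change was 1.25 (p = 0.0872), so for this low gene the listed score is far from the ratio of the means. Its exons share 970 bases with D030062O11Rik, a transcript on the other strand that was at no more than 0.0359 FPKM in any library.

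Tbx5, Tbx15 and Tbx18 ranked the embryos nearly alike. Tbx15 and Tbx18 gave the same order, from Sp8 null embryo 2 through wild-type embryo 1, Sp8 null embryo 3, Sp8 null embryo 1 and wild-type embryo 3 down to wild-type embryo 2. Tbx5 differed from it only in that Sp8 null embryo 1 stood above embryo 3. The order of Tbx15 was shared by 52 of 12132 other tested genes, or 0.429%, and that of Tbx5 by 50, or 0.412%. Among the limb mesenchyme markers, Prrx1, a homeobox gene of limb mesenchyme, had exactly the order of Tbx5, and Twist1 and Grem1, a BMP antagonist, had exactly that of Tbx15.

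**Figure D2:**
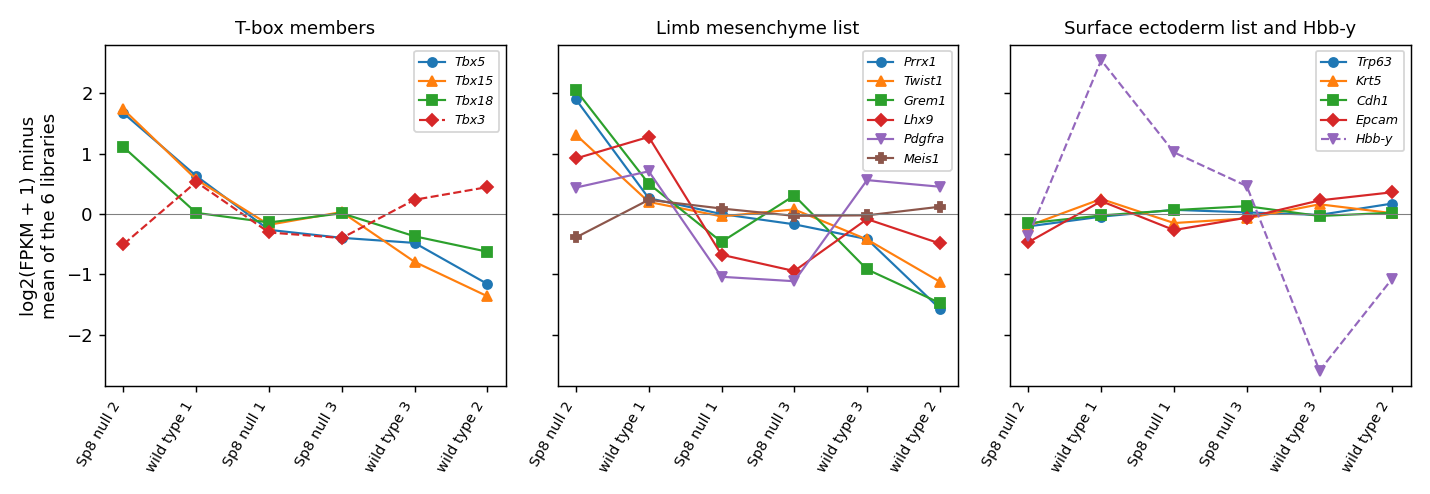
Log2(FPKM + 1) of each gene minus its mean over the 6 libraries (y axis), with libraries on the x axis ordered by their Tbx5 level: T-box members (left), 6 genes of the limb mesenchyme list (middle), and 4 genes of the surface ectoderm list with the embryonic globin gene Hbb-y (right). Prrx1, Twist1 and Grem1 fall from left to right as Tbx5, Tbx15 and Tbx18 do, Pdgfra and Meis1 do not, and Hbb-y peaks in wild-type embryo 1.

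Prrx1 was at 13.57, 53.34 and 11.95 FPKM in Sp8 null embryos and at 16.48, 3.918 and 9.928 FPKM in wild type. Grem1 was at 3.674, 25.7 and 6.961 FPKM in Sp8 null embryos and at 8.123, 1.319 and 2.41 FPKM in wild type. Both therefore shared the extremes of Tbx5 and Tbx15. Of the 15 genes of the mesenchyme list 10 were tested; 5 were highest in Sp8 null embryo 2, against 16.3% of all tested genes, and 4 of these were also lowest in wild-type embryo 2, against 5.15%. Summed over the 15 genes, the level was 156, 230 and 145 FPKM for Sp8 null embryos 1, 2 and 3 against 186, 138 and 147 FPKM for wild type, and of the list only Tcf21 was listed at 0 in every library. No surface ectoderm gene was highest in Sp8 null embryo 2, and 10 of 15 were lowest there, against 24.1% of all tested genes. The part of mesenchyme carried over with the ectoderm in the levels of Tbx5, Tbx15 and Tbx18 was not tested.

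Not every gene of the mesenchyme list behaved in this way. Meis2, the most abundant of the list, was at 74.51, 60.66 and 67.85 FPKM in Sp8 null embryos and 64.16, 56.93 and 52.01 FPKM in wild type. Pdgfra, a growth factor receptor, was at 6.374, 19.55 and 6.009 FPKM in Sp8 null embryos and 23.77, 19.75 and 21.39 FPKM in wild type. It was high in all wild-type libraries, including embryo 2, in which Tbx5 was lowest. No member of the list was called. Without Sp8 null embryo 2 Pdgfra was (log2 fold change -1.65, limma adjusted p = 0.000412). Twist2, which had the smallest p-value of the list, was at 2.179, 4.14 and 2.098 FPKM in Sp8 null embryos and 1.177, 0.08382 and 0.7006 FPKM in wild type, groups that did not overlap (log2 fold change 1.22, limma adjusted p = 0.052).

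The spread was measured as the standard deviation of log2(FPKM + 1) within genotype. It was 0.128 for Tbx3, close to the median of 0.13 over all tested genes and of 0.142 over the surface ectoderm list. It was 1.04 for Tbx5 and 1.02 for Tbx15, larger than in 98.7% of tested genes in each case. The limb mesenchyme list had a median of 0.645 and reached 1.16 in Grem1. A large spread was not particular to these genes: the erythroid list, blood cell genes, had a median of 1.74. Of that list Alas2, an enzyme of haem synthesis, had the smallest p-value (limma adjusted p = 0.636). The globin genes Hbb-y, Hba-x, Hbb-bh1 and Hba-a1 were highest in wild-type embryo 1 and lowest in wild-type embryo 3. Hbb-y was at 192.3 FPKM in the former and 4.459 FPKM in the latter. Alas2 was highest in Sp8 null embryo 2 (3.086 FPKM), as Tbx5 and Tbx15 were, and lowest in wild-type embryo 3 (0.7593 FPKM).

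**Figure D3:**
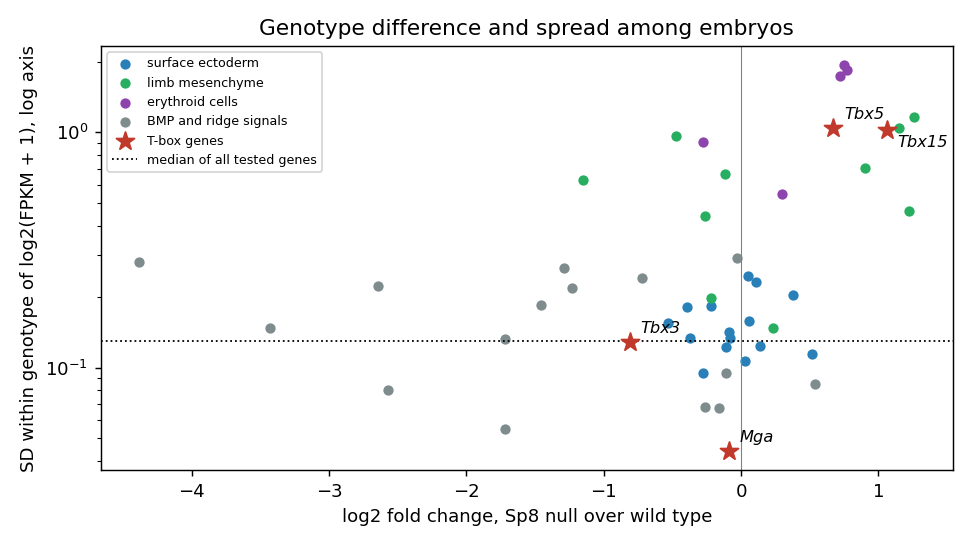
Standard deviation within genotype of log2(FPKM + 1) (y axis, logarithmic) against the log2 fold change of Sp8 null over wild type (x axis) for the tested T-box genes (stars) and the tested genes of 4 lists (points); the dotted line is the median of all tested genes, 0.13. Tbx3 lies at that line and left of 0, and Tbx5 and Tbx15 lie near 1, among limb mesenchyme genes.

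When the mean log2 level of the mesenchyme list was added to the model, an alternative chosen after seeing the data, the residual standard deviation fell to 0.0998 for Tbx5 and 0.26 for Tbx15, while that of Tbx3 was 0.145. Over all tested genes the median ratio of the residual standard deviation with to without this term was 1.04, and over the surface ectoderm list it was 0.559. In that fit the log2 fold change of Tbx3 was -0.79 (SE 0.11, limma adjusted p = 0.0114). It was 0.24 for Tbx5 (SE 0.11, limma adjusted p = 0.239) and 0.64 for Tbx15 (SE 0.17, limma adjusted p = 0.0794). The list level was itself measured in the same 6 libraries, so the fit rests on few degrees of freedom.

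The genes nearest to Tbx5 in profile, by the same distance, were Lix1 (0.115), Zfhx4 (0.167) and Mecom (0.175). Lix1 was at 4.61, 17.36 and 3.965 FPKM in Sp8 null embryos and 10.45, 1.696 and 3.697 FPKM in wild type. Those nearest to Tbx15 were Mab21l2 (0.186), Capn6 (0.208) and Grem1 (0.22). None of these 6 genes passed the test between genotypes, with limma adjusted p-values between 0.324 for Grem1 and 0.609 for Lix1. They were picked for closeness to Tbx5 and Tbx15, which were not called, so this is not a separate result.

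Since Tbx5, Tbx15 and Tbx18 ranked the embryos nearly alike, their ratios within a library were compared, together with their ratios to Prrx1. This comparison was chosen after the values were seen. The ratio of Tbx15 to Tbx5 was 1.25, 1.18 and 1.70 for Sp8 null embryos 1, 2 and 3, against 1.09, 0.942 and 0.857 in wild type. The ratio of Tbx18 to Tbx5 was 0.179, 0.187 and 0.268 for Sp8 null embryos 1, 2 and 3, against 0.111, 0.0793 and 0.126 in wild type. In both, every Sp8 null library lay above every wild-type library. The two-sided exact permutation test gave p = 0.1 for each, the smallest that 3 against 3 libraries allow, and 0.24 after Benjamini-Hochberg adjustment over the 6 ratios compared, so neither passed. The ratio of Tbx5 to Prrx1 was 0.231 ± 0.0268 in Sp8 null embryos and 0.301 ± 0.0728 in wild type (SD, n = 3 each), and that of Tbx15 to Prrx1 0.314 ± 0.049 and 0.295 ± 0.107, with overlapping groups in each (two-sided exact permutation p = 0.2 and 0.7). While Tbx5 spanned a range of 12.6-fold over the 6 libraries, its ratio to Prrx1 spanned 1.77-fold. Prrx1 ranks the 6 libraries exactly as Tbx5 does, so the choice of Prrx1 favoured a narrow range. Ratios to genes of the mesenchyme list without that order, such as Pdgfra and Meis2, were not compared.

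**Figure D4:**
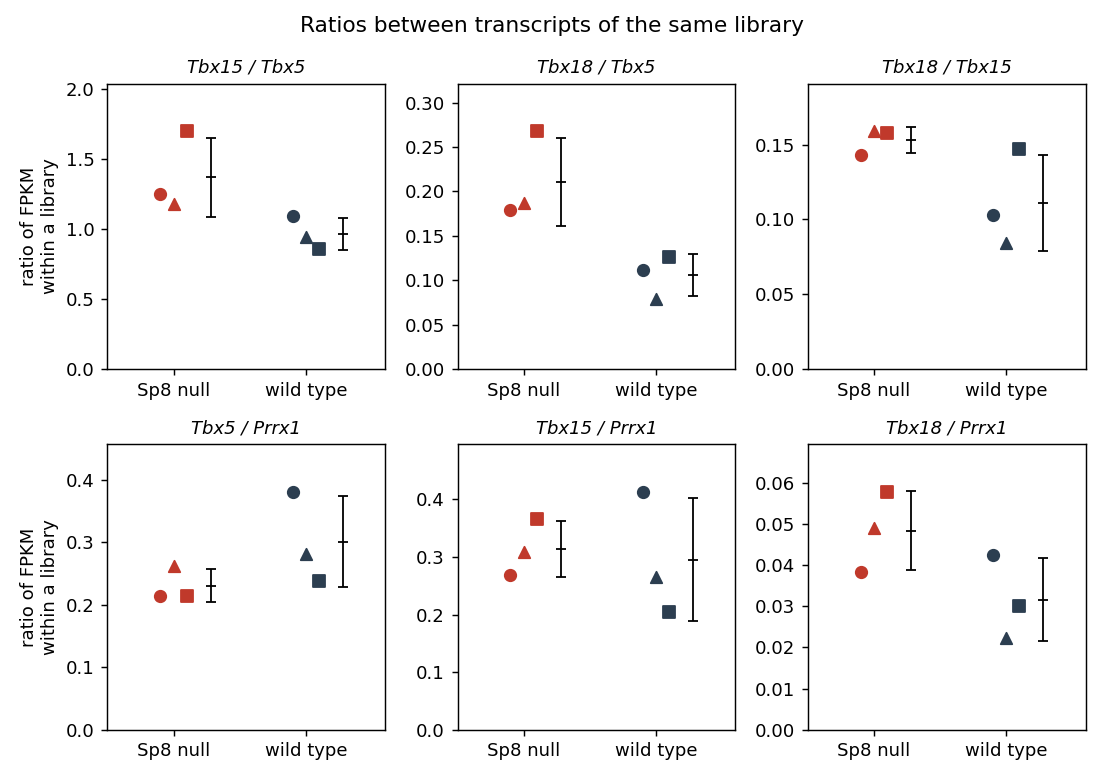
Ratios of FPKM within a library for the 6 pairs of genes compared (y axes, each starting at 0), by genotype; colours and marker shapes stand for genotype and embryo number as in the plot of FPKM by member, and black bars are mean ± SD (n = 3). Tbx15 over Tbx5 and Tbx18 over Tbx5 are higher in each Sp8 null library than in any wild-type library, and the other 4 ratios overlap.

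Tbx4 (ENSMUSG00000000094; chromosome 11, 85886422 to 85916097, plus strand), the hindlimb relative of Tbx5, was at 0.04026, 0.5896 and 0.1495 FPKM in Sp8 null embryos and 0.3099, 0.03793 and 0.1616 FPKM in wild type. Its highest library was Sp8 null embryo 2, its second highest wild-type embryo 1 and its lowest wild-type embryo 2, as for Tbx15 and Tbx18. Its mean, 0.17 FPKM in wild type, was far below the 3.25 FPKM of Tbx5. Pitx1, a hindlimb gene known to act upstream of Tbx4, was listed at 0 in 4 libraries and at no more than 0.02325 FPKM in the others.

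The members known from other tissues were also below 1 FPKM in every library. Tbx1, a pharyngeal gene, was at 0.05279, 0 and 0 FPKM in Sp8 null embryos and 0.2223, 0.03319 and 0.07172 FPKM in wild type, with overlapping groups. The authors' deposited table gave it means of 9.84 in wild type and 1.91 in Sp8 null embryos and listed a fold change of -1.37 (p = 0.0222), which also departs from the ratio of the means. With no filter it did not pass here (log2 fold change -0.12, limma adjusted p = 0.494). Tbx6, a presomitic mesoderm gene, ranged from 0.08203 to 0.2362 FPKM, with both extremes in Sp8 null, and did not pass with no filter (limma adjusted p = 0.704). Tbx20, a heart gene, was listed at 0 in 3 libraries and was at most 0.01634 FPKM.

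In wild-type ectoderm the order of the means was Tbx3 (10.3 FPKM), Tbx15 (3.30), Tbx5 (3.25), Tbx18 (0.362), Tbx4 (0.17), Tbx2 (0.144), Tbx6 (0.121), Tbx1 (0.109) and Tbx20 (0.00545). Tbx3 exceeded both Tbx5 and Tbx15 in every wild-type library. Tbx15 and Tbx5 did not differ beyond their spread, nor did Tbx4, Tbx2, Tbx6 and Tbx1 among themselves. Tbx18 was above Tbx4 in all 6 libraries, although their ranges across embryos overlapped, and Tbx20 was the lowest member in every wild-type library. In Sp8 null Tbx3 remained above Tbx5 and Tbx15 in embryos 1 and 3 and was below both in embryo 2.

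Of the 8 other T-box genes of the mouse, Mga alone passed the filter, and it was the most abundant T-box transcript in these libraries. Mga encodes a large nuclear protein that pairs a T-box with a domain for dimerizing with Max. It was at 39.1, 40.93 and 39.18 FPKM in Sp8 null embryos and 41.95, 44.17 and 41.21 FPKM in wild type. The groups did not overlap, as for 29.8% of tested genes in either direction, but the difference did not pass the test (log2 fold change -0.09, 95% interval -0.24 to 0.05; limma adjusted p = 0.425), and it was 0.00243 under upper-quartile scaling. Tbx19, Tbx21 and Tbx22 were listed at 0 in every library. Tbr1, Eomes, Tbx10 and T, the gene of Brachyury, were at most 0.3537 FPKM. That value was T in Sp8 null embryo 3; T was at 0.2862 and 0.04591 FPKM in Sp8 null embryos 1 and 2 and between 0.01418 and 0.04903 FPKM in wild type.

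Known partners and targets of T-box factors were also listed. Of 19 listed genes 10 were tested, 3 were called lower and none higher. Among all tested genes 5.15% were called lower and 1.68% higher. Under upper-quartile scaling 4 genes of the list were called. The median log2 fold change of the list was 0.01, against -0.06 over all tested genes. Sall1, a zinc finger factor, was at 1.717, 1.641 and 1.674 FPKM in Sp8 null embryos and 7.726, 6.644 and 5.987 FPKM in wild type (log2 fold change -1.53, limma adjusted p = 0.000352). Its relative Sall4, a known target of Tbx5 in the forelimb, was at 11.23, 8.637 and 11.14 FPKM in Sp8 null embryos and 7.803, 10.64 and 8.063 FPKM in wild type, and did not pass (limma adjusted p = 0.428). Sall4 thus followed neither the order of embryos of Tbx5 nor the genotype.

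Cdkn1a, a cell cycle inhibitor known to be repressed by Tbx2 and Tbx3, was lower together with Tbx3: it fell from 66.0 ± 11.5 to 39.3 ± 5.27 FPKM (SD, n = 3 each; log2 fold change -0.73, limma adjusted p = 0.0313). Cdkn1a was not called without Sp8 null embryo 1, Sp8 null embryo 2, wild-type embryo 2 or wild-type embryo 3 (log2 fold change -0.62 and limma adjusted p = 0.0759 without Sp8 null embryo 2). Sall1 and Tle4 were called without each library in turn. Cdkn2a, a further known target of their repression, was listed at 0 in every library. Fgf10, the limb target of Tbx5, was under the filter at 0.3975, 1.591 and 0.2869 FPKM in Sp8 null embryos and 1.057, 0.234 and 0.4226 FPKM in wild type. Its highest, second and lowest libraries were Sp8 null embryo 2, wild-type embryo 1 and wild-type embryo 2, the same as those of Tbx5, Tbx15 and Tbx18.

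The Groucho-type corepressors differed among themselves. Tle4 was at 6.53, 7.156 and 7.138 FPKM in Sp8 null embryos and 14.45, 13.87 and 13.69 FPKM in wild type, and was lower (log2 fold change -0.92, limma adjusted p = 0.000673). Tle3 was at 43.16, 40.78 and 38.14 FPKM in Sp8 null embryos and 33.5, 32.02 and 26.55 FPKM in wild type, without overlap but short of the threshold (log2 fold change 0.40, limma adjusted p = 0.0569). Tle1 and Tle2 did not pass (limma adjusted p = 0.585 and 0.232). Wwtr1 and Yap1, coactivators known to bind Tbx5, and Pdlim7, a LIM protein that binds Tbx4 and Tbx5, did not pass either (limma adjusted p = 0.287, 0.506 and 0.13).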

How the data were processed

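Polyadenylated RNA of 6 libraries (3 Sp8 null, 3 wild type, from the sample titles) was sequenced. The authors deposited FPKM per gene and library with a status per estimate, on Ensembl build 87 models per the file headers. GRCm38, TopHat2, Cufflinks, SAMtools, FastQC and DESeq2 are named, without roles, per the submitters' processing notes. The deposited table also holds group means (a normalized signal), a signed fold change score and a p-value, whose test is not given in the sources used here; control means were taken for wild type.

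Here, log2(FPKM + 1) of genes reaching 1 FPKM in 3 or more libraries was fitted with limma 3.58.1 (R 4.3.3, mean-variance trend, genotype only), two-sided, with Benjamini-Hochberg adjustment over all 12133 tested genes and calls at 0.05. The log2(FPKM + 1) scale understates changes of low genes. The procedure was tested on simulated data. FPKM gives depth only in relative terms, so no counting interval is given. Coordinates are from GENCODE M21, which held 49109 of 49452 identifiers.

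The members and lists were chosen with earlier results of these data known. Named genes are Sp8, all T-box genes, of each list the most abundant, the smallest-p and the called members, overlapping and neighbouring genes, and for members ranging over at least 1 log2 unit the 3 nearest profiles; others named were chosen after their values were seen. Alternatives were pseudocount, filter, scaling, replicate block, sample name number, failed estimates, trend, threshold and leaving out each library, and, added after seeing the data, a mesenchymal covariate, protein-coding genes only and combinations without Sp8 null embryo 2.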

Additional observations from a re-analysis of the deposited data

How the results depend on the processing

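Tbx3 was called in each of its 19 alternatives, with log2 fold changes from -0.90 to -0.69 and limma adjusted p from 0.00152 to 0.0395. Tbx5 (0.01 to 1.16, adjusted p from 0.239 in limma) and Tbx15 (0.45 to 1.61, adjusted p from 0.0794 in limma) were called in none of theirs. Mga turned to 0.00243 under upper-quartile scaling. The number of called genes, 829, was 342 with no filter, 545 with the number that opens each sample name (4 or 5) as a covariate, 244 at an adjusted p under 0.01, and 213 to 665 with each library left out (213 without wild-type embryo 2, 665 without Sp8 null embryo 3 and at most 447 without any of the others); fewer samples or more genes enter some of these fits, and otherwise the cause was not tested. With the embryo number as a replicate block 328 were called, and Tbx3 remained called (limma adjusted p = 0.0224). The numbers do not pair the samples: deviations of same-numbered libraries correlated at -0.164, -0.145 and -0.0699 across genes. The median of the partner and target list, 0.01, moved to 0.08 under median-of-ratios and 0.10 under upper-quartile scaling. Without Sp8 null embryo 2, 1 surface ectoderm gene (Tfap2a) and 1 limb mesenchyme gene (Pdgfra) were called, in place of 2 and 0. For members near 0 FPKM the pseudocount sets the size of a change: with 0.1, Tbx18 was at 1.49 and Tbx1 at -0.76.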
